A study of Mus musculus with 8 samples.

Results

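Caveolae are flask-shaped pits of the plasma membrane that are abundant in lung endothelium, where they take part in carrying molecules across the vessel wall, in buffering membrane tension and in holding signalling proteins together. Caveolins are inserted into the inner leaflet, cavins form a coat around the bulb, EHD ATPases and the membrane-bending pacsin sit at the neck, and the protein encoded by Plvap forms the thin diaphragm that spans the mouth of caveolae and the openings of fenestrae. The genes described here are the caveolins Cav1 and Cav2, the cavins Cavin1, Cavin2 and Cavin3, the neck proteins Ehd2, Ehd4 and Pacsin2, and Plvap. They were chosen by name, and all 9 were found among the 34899 genes measured. They were read in RNA-seq libraries of lung endothelial cells from HF mice (4 libraries) and LF mice (4 libraries), all female C57BL6, sorted by flow cytometry as CD45- CD31+ cells. HF and LF are given in the labels as abbreviations only. The title of the series concerns obesity, neutrophil oxidants and vascular inflammation. The question is how the transcripts of the caveolar coat and diaphragm in HF endothelium compared with those in LF endothelium. Libraries held between 10631506 and 20781564 reads in genes. Values are the authors' normalised read counts, which are not scaled for gene length unless a value is given per kilobase, and errors are SD with n = 4 per group.

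The sorted cells carried markers of endothelium. Pecam1, which encodes CD31, averaged 28252 ± 1063 in HF, against 25381 ± 6906 in LF. The cadherin of endothelial junctions, Cdh5, was at 13037 ± 196 in HF, against 11154 ± 1655 in LF. Ptprc, which encodes CD45, averaged 166 ± 72.8 in HF, against 198.9 ± 59.0 in LF. The LF libraries did not lie together. On the first principal component, with 36.1% of the variance, the HF libraries spanned -6.79 to 39.6, against -56.4 and -50.9 in LF 1 and LF 2 and 13.5 and 25.9 in LF 3 and LF 4. Markers of other lung cells, most of them from types that also build caveolae, were read beside the genes described here. The 8 alveolar type 1 markers summed to 22062 to 25306 in the HF libraries and 25604 to 35316 in the LF libraries, and 0 of 8 had a fold above 1, with none of the 8 at 0 in group means. Clic5 and Hopx, at 10551 and 5966 in HF, made up most of that sum. Within LF these were lowest in LF 1 and LF 2. The others, such as Ager (6022, 9679, 3481 and 4569 in LF 1 to LF 4), were highest there. Without LF 3 and LF 4 the median log2 fold change of the 8 was -1.03, against 0.03 over all tested genes. Without LF 1 and LF 2 it was -0.17. Smooth muscle and pericyte markers summed to 2326 to 2843 in HF and 2734 to 4456 in LF, with 1 of 8 folds above 1, and fibroblast markers to 5943 to 9058 in HF and 8716 to 11738 in LF, with 0 of 7 folds above 1. Leukocyte markers summed to 3364 to 5977 in HF and 5755 to 7142 in LF, with 0 of 7 tested folds above 1. Single genes made up most of the last 2 sums. Inmt averaged 5484 in HF and 7079 in LF among the fibroblast markers. Lyz2 averaged 3856 in HF and 5400 in LF among the leukocyte markers. Of all these markers Cd3e, of T cells, was the 1 listed at 0 in any library, in 2 of the 8. The part of these other cells in the results below was not tested. In such bulk libraries, fewer cells of a type and less RNA per cell cannot be told apart.

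Cav1 and Cav2 are neighbours on chromosome 6, both on the forward strand, with 17219 bases between the end of Cav2 (17281185 to 17289115) and the start of Cav1 (17306335 to 17341452) in the GENCODE M21 annotation of GRCm38. The 250 bases before each start are shown because these neighbours had similar profiles over the libraries, described below. That likeness was not particular to neighbours: Cavin2, on chromosome 1, was as near to Cav1, at 0.11 each. The sequences are from RefSeq on GRCm38.p6, which held a promoter for 7 of the 9 genes and none for Plvap and Cavin3. Capitals mark matches on either strand to GGGCGG (the SP and KLF box), CCAAT (the NFY box) and TATAAA.
Cav1, chr6:17306085-17306334, forward strand: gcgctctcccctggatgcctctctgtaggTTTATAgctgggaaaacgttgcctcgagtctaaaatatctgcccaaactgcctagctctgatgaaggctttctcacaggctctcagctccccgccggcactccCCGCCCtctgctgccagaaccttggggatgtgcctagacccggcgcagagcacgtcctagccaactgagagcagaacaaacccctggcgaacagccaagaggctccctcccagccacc
Cav2, chr6:17280935-17281184, forward strand: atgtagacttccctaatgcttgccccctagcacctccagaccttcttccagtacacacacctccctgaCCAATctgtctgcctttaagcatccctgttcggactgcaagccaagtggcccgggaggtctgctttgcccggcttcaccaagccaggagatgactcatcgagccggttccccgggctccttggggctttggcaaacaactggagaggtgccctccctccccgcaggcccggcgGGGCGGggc
Both windows were rich in G and C, at 59.6% for Cav1 and 62% for Cav2. Each held 1 match to GGGCGG, which 32.7% of all 32851 such windows hold. Only the Cav2 window held CCAAT, found in 33.9% of windows, and of these 2 windows only that of Cav1 held TATAAA, found in 12.4%, in reverse orientation. Neither held CCGGAA (an ETS core, in 12.03% of windows) or GTAAACA (a FOX core, in 3.17%). RefSeq also lists a later start of Cav1, whose window (17307390 to 17307639, not shown) held no match to any of these letters. Such matches describe letters only.

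Per kilobase of exon, the coat and diaphragm genes were among the most abundant transcripts of these cells. Ranked per kilobase over all 17067 tested genes, Cav1 stood 21st, Plvap 29th, Cavin2 32nd, Cav2 50th and Ehd4 93rd, while Cavin1 stood 379th, Ehd2 1067th, Pacsin2 1087th and Cavin3 1592nd. In HF the order of mean counts per kilobase was Cav1 (12984), Plvap (12125), Cavin2 (9755), Cav2 (7709), Ehd4 (4806), Cavin1 (1760), Ehd2 (837), Pacsin2 (808) and Cavin3 (583). Cav1 and Plvap overlapped in HF, at 11679 to 14376 and 10531 to 14970 per kilobase, as did Ehd2 and Pacsin2, at 816 to 860 and 712 to 868, and the other neighbours in that order did not overlap. In LF the order of means was Cav1 (11982), Cavin2 (9068), Plvap (7474), Cav2 (6721), Ehd4 (4919), Cavin1 (1717), Pacsin2 (692), Ehd2 (687) and Cavin3 (480). Cav1 spanned 9193 to 14613 per kilobase in LF and overlapped Cavin2, at 7891 to 10440, but lay above Plvap, at 5585 to 9007, and Cav2, at 4524 to 8941. Cavin2, Plvap and Cav2 overlapped each other in LF, as did Cav2 and Ehd4 (4647 to 5370), and Ehd2 (505 to 879) overlapped both Pacsin2 (527 to 884) and Cavin3 (456 to 519.7). Cavin1 overlapped neither of its neighbours. Plvap thus stood below Cav1 alone in HF and below Cav1 and Cavin2 in LF, and its place beside Cavin2 in LF lay within the spread of the libraries.

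**Figure D1:**
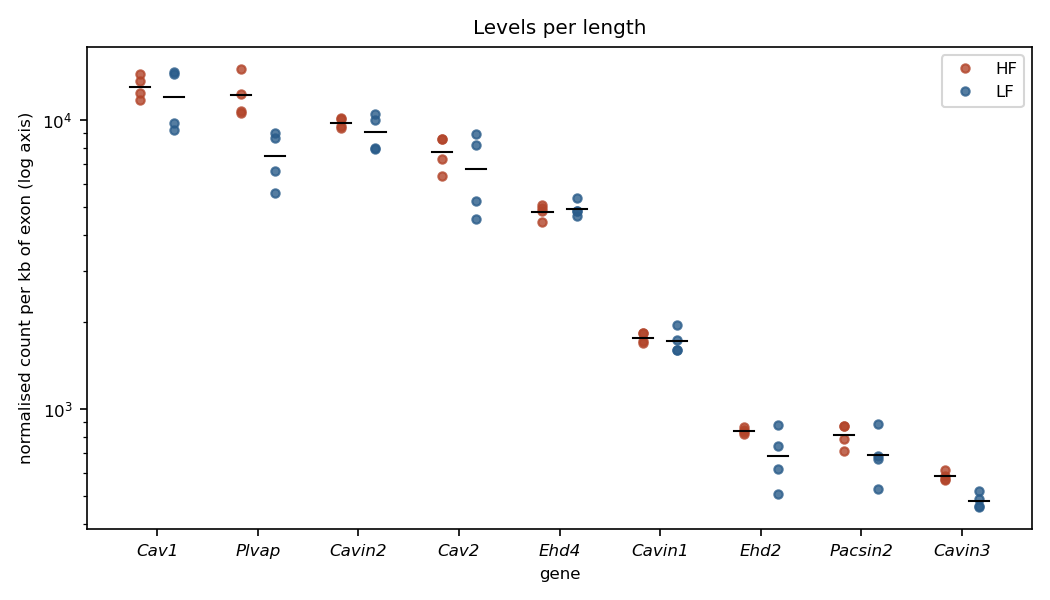
Normalised count per kilobase of exon (log axis) for the 9 genes, ordered by the HF mean. Each point is 1 library (HF left, LF right of each pair) and bars are means. Cav1, Plvap, Cavin2, Cav2 and Ehd4 lie at 4430 per kilobase or higher in every library, Cavin1 between 1595 and 1950, and Ehd2, Pacsin2 and Cavin3 at 884 or lower.

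Plvap, the diaphragm gene, had the largest fold change of the 9 genes. Plvap (ENSMUSG00000034845, chromosome 8, 71497765 to 71511752, reverse strand) was at 20925, 21261, 24437 and 29745 in HF 1 to HF 4, against 17897, 17168, 11097 and 13238 in LF 1 to LF 4. Every HF library lay above every LF library, and within LF the levels of LF 3 and LF 4 were the lowest. Plvap averaged 24092 ± 4087 in HF, against 14850 ± 3232 in LF, which is a fold of 1.64 (95% interval 1.23 to 2.17) and a log2 fold change of 0.71 ± 0.19 (SE). With limma's moderated test over all 17067 genes the unadjusted p was 0.00259 and the Benjamini-Hochberg adjusted p was 0.193, so Plvap did not pass. The adjusted p of Plvap was 0.223 with edgeR's quasi-likelihood test and 0.0258 with DESeq2 on the same libraries. The authors' deposited table, which has DESeq2's column headings, gives Plvap a log2 fold change of 0.70 with an adjusted p of 0.0153, and it is the only one of the 9 genes under 0.05 there, in a table where 1.58% of genes with an adjusted p are called higher in HF. Without LF 1 and LF 2, limma called Plvap higher in HF (log2 fold change 0.98, adjusted p = 0.00491), as it did 3.09% of all genes tested. Without LF 3 and LF 4, limma also called Plvap higher (0.44, adjusted p = 0.0421), as it did 14.0% of all genes tested. These pairs were chosen after the split of the LF libraries had been seen, so the 2 calls are no further test of Plvap.

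Plvap is also used as a marker of general capillary cells, the lung capillary type opposed to the large, thin aerocytes, so levels of both types are set beside it. General capillary markers, without Plvap, summed to 131713 to 155129 in the HF libraries and 104567, 117584, 124786 and 137864 in LF 1 to LF 4. All 8 of them had a fold above 1 with a median log2 fold change of 0.23, against 0.02 over all tested genes. That shift was not particular to this capillary type, since pan-endothelial markers had a median of 0.22 with 7 of 8 folds above 1. Without LF 1 and LF 2 the general capillary median was 0.06, against -0.03 over all tested genes. Aerocyte markers summed to 44076 to 60466 in HF and 43360, 40605, 65000.2 and 69624 in LF 1 to LF 4, and 4 of 8 had a fold above 1 with a median log2 fold change of 0.01. LF 3 and LF 4, the libraries with the least Plvap, thus had the highest sums of aerocyte markers, while LF 1 had the lowest sum of general capillary markers. What these shifts contribute to the Plvap difference was not tested. Arterial markers had 6 of 6 tested folds above 1 (median log2 fold change 0.39) and venous markers 3 of 6 (0.06).

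The caveolins did not separate the groups. Cav1 (ENSMUSG00000007655), the main structural protein of caveolae, was at 42488, 46639.7, 40223 and 49512 in HF 1 to HF 4, against 31659, 33472, 50329 and 49607 in LF 1 to LF 4. The HF values lay between the 2 lower LF libraries and the 2 higher ones. Cav1 averaged 44716 ± 4157 in HF, against 41267 ± 10079 in LF, for a fold of 1.11 (95% interval 0.817 to 1.495) with limma's adjusted p = 0.787. Cav2 (ENSMUSG00000000058), the partner that forms mixed oligomers with caveolin 1, was at 24388, 28551, 21228 and 28665 in HF 1 to HF 4, against 15086, 17425, 27328 and 29819 in LF 1 to LF 4. As for Cav1, LF 1 and LF 2 were below every HF library. Cav2 averaged 25708 ± 3589 in HF, against 22415 ± 7247 in LF, for a fold of 1.19 (95% interval 0.844 to 1.67) with limma's adjusted p = 0.688. With LF 1 and LF 2 left out, the log2 fold changes turned to -0.16 for Cav1 and -0.16 for Cav2, and neither passed (adjusted p of 0.612 and 0.698 by limma). Without LF 3 and LF 4, limma called both higher in HF, with log2 fold changes of 0.45 and 0.65 (adjusted p = 0.0185 and 0.00966). That fit called 14.0% of all genes tested higher in HF. It kept only the 2 LF libraries lowest for both caveolins, a choice made after the data were seen, so it is no test of the caveolins. With values scaled to 8 pan-endothelial markers, which lowers the median log2 fold change of all tested genes to -0.13, that of Cav1 was -0.0081 and that of Cav2 was 0.09.

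Among the cavins, Cavin3 was the one whose groups did not overlap. Cavin3 (ENSMUSG00000037060, chromosome 7, 105480083 to 105482300, reverse strand), the least abundant of the 3 cavins per kilobase and a binding partner of protein kinase C delta, was at 937, 974, 1021 and 944 in HF 1 to HF 4, against 864, 757, 765 and 805 in LF 1 to LF 4. Cavin3 averaged 969 ± 38.2 in HF, against 798 ± 48.8 in LF, for a fold of 1.22 (95% interval 1.03 to 1.43), with an unadjusted p of 0.0214 and an adjusted p of 0.359 by limma. Its log2 fold change was much the same with either pair of LF libraries left out, at 0.30 when LF 1 and LF 2 were left out (limma's adjusted p = 0.197) and 0.26 when LF 3 and LF 4 were (limma's adjusted p = 0.109). It was smaller with quantile normalisation, at 0.17 (limma's adjusted p = 0.622), and with scaling to pan-endothelial markers, at 0.13 (limma's adjusted p = 0.742). Its exons share 374 bases with Gm45667 on the other strand, a gene that averaged 1.59 counts. Cavin1 (ENSMUSG00000004044, chromosome 11), the cavin that caveola formation depends on in mice, was at 6139, 6527, 6040.3 and 6551 in HF 1 to HF 4, against 5719.6, 5738, 6177 and 6995 in LF 1 to LF 4. Its groups overlapped, with a fold of 1.03 (95% interval 0.861 to 1.23) and limma's adjusted p = 0.905. Cavin2 (ENSMUSG00000045954, chromosome 1), whose loss in mice removes caveolae from lung endothelium, was at 28995, 30639.6, 28607 and 30966 in HF 1 to HF 4, against 24279, 24107, 30526 and 31893 in LF 1 to LF 4. The fold of Cavin2 was 1.08 (95% interval 0.854 to 1.38, limma adjusted p = 0.783), and LF 1 and LF 2 were again below every HF library. The small positive log2 fold changes of Cavin1 and Cavin2, 0.04 and 0.12, became negative with quantile normalisation (-0.096 and -0.015), with scaling to pan-endothelial markers (-0.11 and -0.036) and without LF 1 and LF 2 (-0.059 and -0.067).

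None of the neck genes separated the groups. Ehd2 (ENSMUSG00000074364, chromosome 7), the ATPase that holds caveolae at the membrane, was at 4247, 4309, 4176 and 4402 in HF 1 to HF 4, against 2583, 3172, 3805 and 4501 in LF 1 to LF 4. The 4 HF libraries lay within 1.05-fold of each other, whereas the LF libraries spanned 1.74-fold and reached above HF in LF 4. Ehd2 averaged 4284 ± 95.9 in HF, against 3515 ± 825 in LF, for a fold of 1.244 (95% interval 0.982 to 1.58) with limma's adjusted p = 0.485. Pacsin2 (ENSMUSG00000016664, chromosome 15), an F-BAR protein that curves the membrane, was at 3495, 4259.5, 3862 and 4255 in HF 1 to HF 4, against 2588, 3279, 3375 and 4338 in LF 1 to LF 4. The fold of Pacsin2 was 1.184 (95% interval 0.940 to 1.49) with limma's adjusted p = 0.573, and the groups overlapped through LF 4. Ehd4 (ENSMUSG00000027293, chromosome 2), a related ATPase of endocytic membranes, was at 19738, 17752, 19268 and 20272 in HF 1 to HF 4, against 18620.5, 19365, 19339 and 21519 in LF 1 to LF 4. Ehd4 was the 1 gene of the 9 with the lower mean in HF, and its groups overlapped throughout, with a fold of 0.977 (95% interval 0.798 to 1.197) and limma's adjusted p = 0.934.

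**Figure D2:**
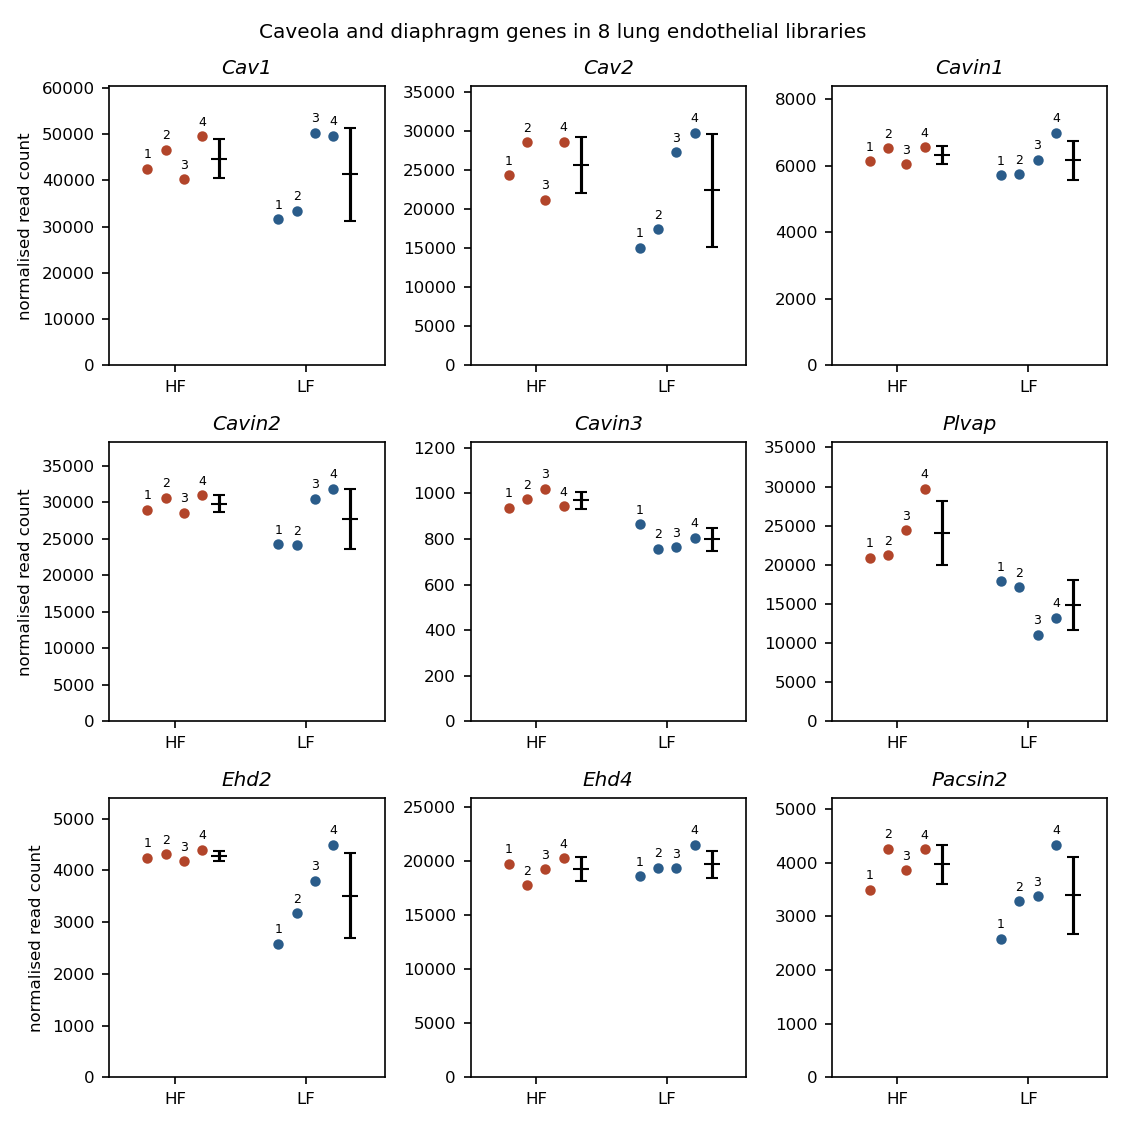
Normalised read count of each of the 9 genes in every library, with HF on the left and LF on the right of each panel. Points are libraries numbered by replicate, and the bar beside them is the mean with SD. The HF points lie above all LF points for Plvap and Cavin3, and the groups overlap for the other 7.

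Counted as a group, 8 of the 9 genes averaged higher in HF than in LF. The median of the 9 log2 fold changes was 0.24, against 0.02 over all 17067 tested genes. That direction rested on LF 1 and LF 2: with both left out, 4 of the 9 had a fold above 1 and the median was -0.059, against -0.027 over all genes. Scaled to the pan-endothelial markers, 5 of the 9 had a fold above 1 and the median was 0.09, against -0.13 over all genes. With limma 0 of 9 passed an adjusted p under 0.05, as did 0 of all genes tested (0%), where 1882 genes had an unadjusted p under 0.05. The adjusted p values of the 9 lay between 0.193 and 0.934. At an unadjusted p under 0.05 limma gave 2 of the 9, both higher in HF, where 6.36% of all genes tested met this in that direction. Groups did not overlap in 2 of the 9, both with HF above LF, against 3.47% of all genes tested. DESeq2 called 1 of the 9 higher in HF, against 1.45% of genes, and edgeR called 0 of 17067, with 1905 at an unadjusted p under 0.05. Without LF 1 and LF 2 limma called 1 of 9 higher (Plvap), against 3.09% of genes called higher. Without LF 3 and LF 4 it called 6 of 9 higher (Cav1, Cav2, Cavin2, Plvap, Ehd2 and Pacsin2), against 14.0% of genes called higher. Both pairs were chosen after the data were seen, so these calls are no test of the 9 genes. The pan-endothelial markers had 7 of 8 folds above 1 with a median log2 fold change of 0.22, close to the 0.24 of the 9 genes, and without LF 3 and LF 4 limma called 7 of these 8 markers higher and 1 lower. A fold above 1 was found for 2 of the 8 when LF 1 and LF 2 were left out. The marker that ran the other way was Erg, an endothelial transcription factor, at 746, 599.9, 708 and 771 in HF 1 to HF 4, against 1044, 1034, 850.1 and 845 in LF 1 to LF 4, with every HF library below every LF library. They summed to 111491 to 126456 in HF and 79311 to 132803 in LF, with their lowest level in LF 1.

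**Figure D3:**
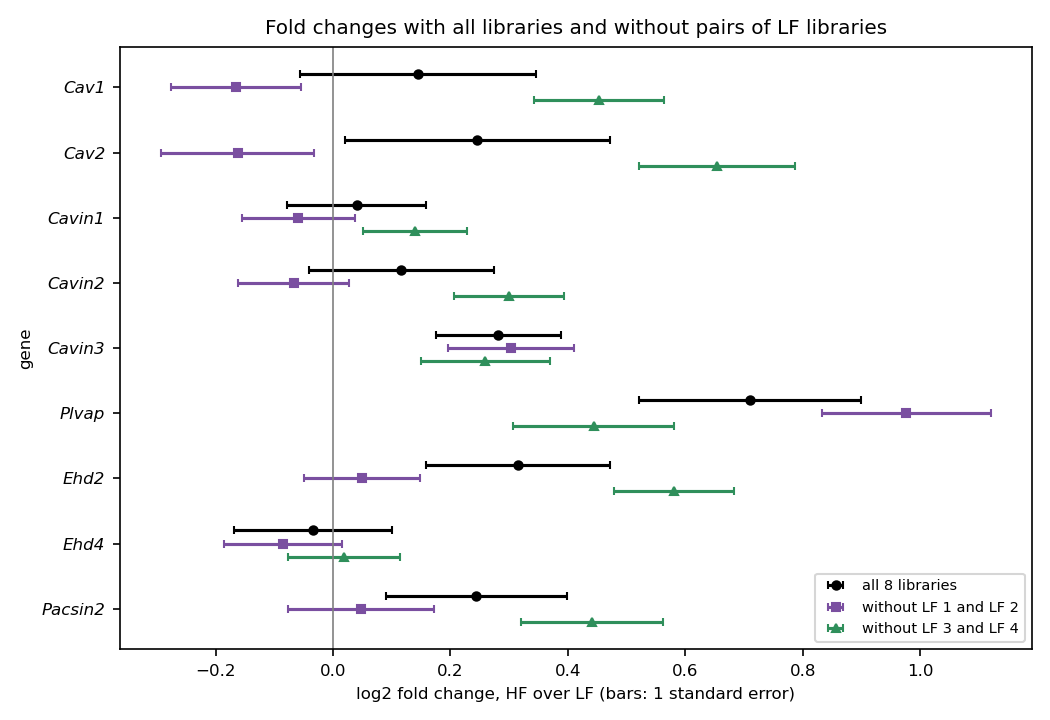
Log2 fold change of HF over LF for the 9 genes with 1 standard error, from limma, with all 8 libraries (black circles), without LF 1 and LF 2 (purple squares) and without LF 3 and LF 4 (green triangles). Plvap lies at 0.71, 0.98 and 0.44 and Cavin3 at 0.28, 0.30 and 0.26, while Cav1 lies at 0.14, -0.16 and 0.45.

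Within LF, the caveolins and Plvap ranked the libraries in opposite ways. Relative to its mean over the 8 libraries, on the log2 scale, Cav1 deviated by 0.0031, 0.14, -0.076 and 0.22 in HF 1 to HF 4, against -0.42, -0.34, 0.25 and 0.23 in LF 1 to LF 4. The deviations of Plvap were 0.17, 0.19, 0.39 and 0.67 in HF 1 to HF 4, against -0.059, -0.12, -0.75 and -0.49 in LF 1 to LF 4. Cav2 followed Cav1 within LF, at -0.64, -0.43, 0.22 and 0.35 in LF 1 to LF 4. LF 1 and LF 2 were thus the low LF libraries for the caveolins and LF 3 and LF 4 for the diaphragm gene. The spread between LF libraries on the log2 scale exceeded that between HF libraries in 9 of the 9 genes, as it did in 71.5% of all genes tested. As a coefficient of variation it was 2.24% in HF against 23.5% in LF for Ehd2, and 14.0% in HF against 32.3% in LF for Cav2. The least unequal was Ehd4, at 5.63% in HF and 6.36% in LF.

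**Figure D4:**
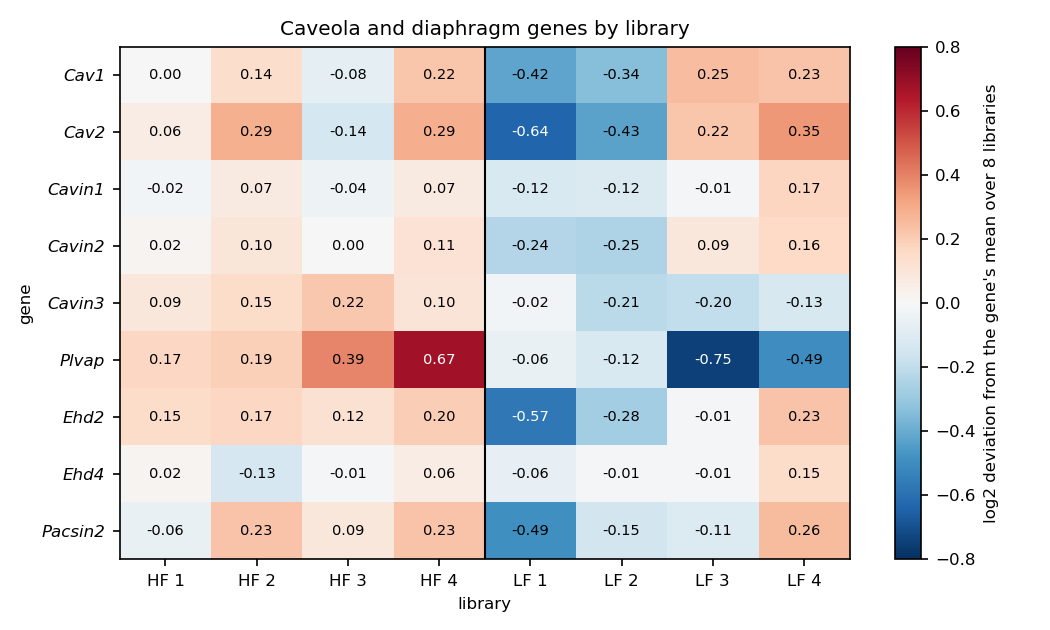
Log2 deviation of each gene from its own mean over the 8 libraries, with HF libraries left of the black line and LF libraries right of it (red above the mean, blue below). Cav1, Cav2 and Cavin2 are below their means in LF 1 and LF 2 and above them in LF 3 and LF 4, while Plvap is lowest in LF 3 and LF 4, at -0.75 and -0.49.

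Ratios within a library do not depend on how libraries are scaled, so each gene was also set against Cav1. The ratio of Plvap to Cav1 counts was 0.493, 0.456, 0.608 and 0.601 in HF 1 to HF 4, against 0.565, 0.513, 0.221 and 0.267 in LF 1 to LF 4. LF 1 and LF 2 thus lay within the HF range and LF 3 and LF 4 far below it. The mean log2 ratio was -0.90 ± 0.21 in HF, against -1.47 ± 0.68 in LF, a difference of 0.57, with an exact two-sided permutation p of 0.229 (n = 4 per group; 0.869 after adjustment over the 17066 ratios to Cav1). The smallest p that 4 against 4 allows is 0.0286, so no ratio could pass that adjustment unless most of the 17066 reached it. The difference in mean log2 ratio was 1.14 when LF 1 and LF 2 were left out, and -0.0092 when LF 3 and LF 4 were. Per kilobase, Plvap stood at 0.790 to 1.05 of Cav1 in HF and at 0.980, 0.889, 0.382 and 0.463 of Cav1 in LF 1 to LF 4.

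The other coat genes kept closer to Cav1 than Plvap did, but not all of them closely. The ratio of Cavin3 to Cav1 was 0.0191 to 0.0254 in HF, against 0.0273, 0.0227, 0.0152 and 0.01625 in LF 1 to LF 4. Per kilobase, Cav2 stood at 0.545 to 0.632 of Cav1 in HF and 0.492 to 0.621 in LF. The groups overlapped in all 8 ratios to Cav1, where 2.56% of the 17066 ratios did not overlap, and the exact two-sided permutation p of the 8 lay between 0.143 and 0.771, with 0.0286 the smallest that 4 against 4 allows. The smallest of these was that of Ehd2, whose ratio to Cav1 was 0.09999, 0.0924, 0.104 and 0.0889 in HF 1 to HF 4, against 0.0816, 0.0948, 0.0756 and 0.0908 in LF 1 to LF 4. The ratio of Ehd4 to Cav1 was 0.381 to 0.479 in HF, against 0.588, 0.579, 0.384 and 0.434 in LF 1 to LF 4, so LF 1 and LF 2 were highest.

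**Figure D5:**
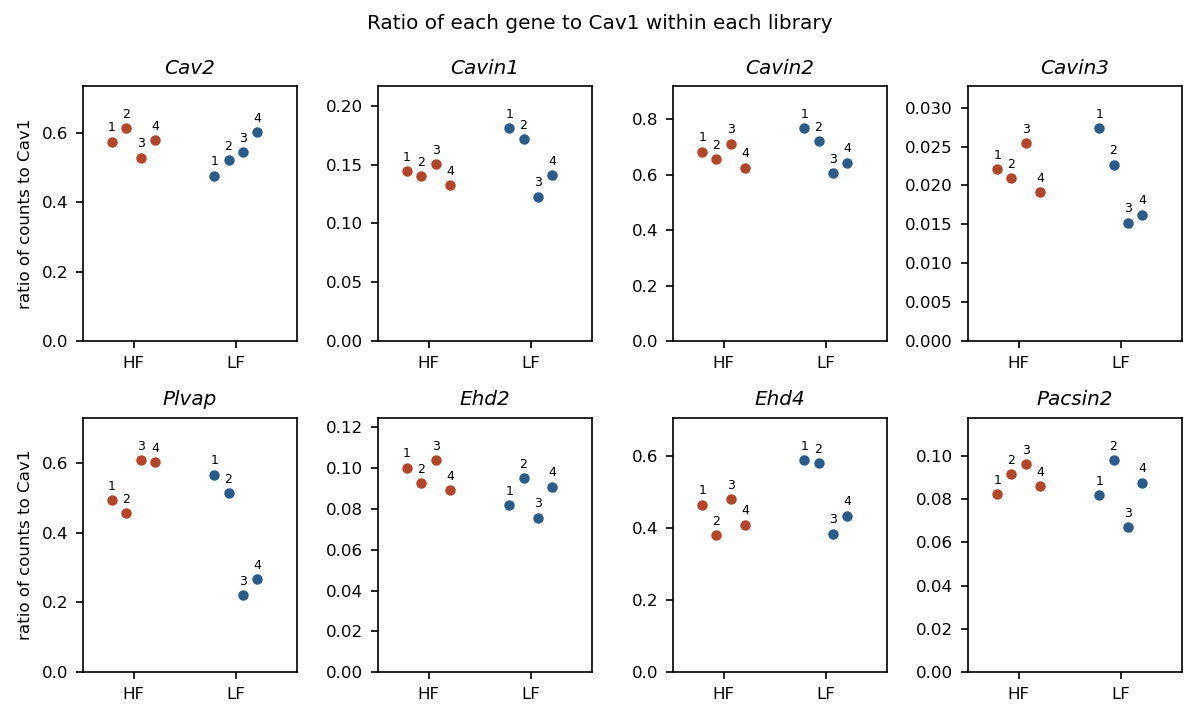
Ratio of the normalised count of each gene to that of Cav1 in the same library, HF left and LF right, points numbered by replicate. For Plvap, LF 3 and LF 4 lie at 0.221 and 0.267, below the HF range of 0.456 to 0.608, and LF 1 and LF 2 lie within it.

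The likeness of profiles was measured as the root mean square difference of log2 levels over the 8 libraries after each gene was set to its own mean, among 6307 genes with a mean of at least 500 counts. Nearest to Plvap were Odc1 (ornithine decarboxylase, of polyamine synthesis) at 0.083, Retreg2 (a reticulon-like protein of the endoplasmic reticulum) at 0.086, the Wnt receptor Fzd6 at 0.091, 6430548M08Rik at 0.093 and Irf2bp1 at 0.096, against a median of 0.47 for the 6307 genes. The nearest of the 9 genes to Plvap was Cavin3, at 0.32. Nearest to Cav1 were Haus2 (a subunit of augmin, of the mitotic spindle) at 0.027, Ywhaq (a 14-3-3 protein) at 0.029, the sialic acid carrier Slc35a1 at 0.030, Abce1 (of ribosome recycling) at 0.035 and the small GTPase Arf1 at 0.035, against a median of 0.20. Of the 9 genes, Cavin2 and Cav2 were nearest to Cav1, at 0.11 each, then Ehd2 at 0.14, and Plvap was farthest, at 0.52. Ehd4 and Cavin3 lay at 0.23 and 0.28 from Cav1, beyond the median of 0.20.

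The other genes of the same machinery are given by their values, since limma called 0% of all genes tested and a count of 0 says nothing particular to these lists. Among the paralogs of the coat, Ehd1, an ATPase of endocytic recycling, was at 5872, 6672, 5828 and 6804 in HF 1 to HF 4, against 3588, 3691, 5833 and 6910 in LF 1 to LF 4, which overlapped. Cavin4, a cavin of muscle, averaged 31.0 ± 10.7 in HF and 50.5 ± 22.0 in LF, and Pacsin3 averaged 31.5 ± 4.75 in HF and 61.2 ± 32.4 in LF. The muscle caveolin Cav3 averaged 2.64 in HF and 7.78 in LF, and the neuronal Pacsin1 averaged 0.698 in HF and 2.50 in LF, both too low to be tested. Of the 4 paralogs tested, 2 had a fold above 1, and the median log2 fold change was -0.23.

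Of the vesicle budding and transcytosis genes, 12 of 17 tested had a fold above 1 (median log2 fold change 0.04). Fyn, a Src-family kinase able to phosphorylate caveolin 1, was at 1726, 2074, 2460.0 and 2533 in HF 1 to HF 4, against 1667, 1562, 912 and 968 in LF 1 to LF 4. Its groups did not overlap, LF 3 and LF 4 were lowest as for Plvap, and the fold was 1.76 (95% interval 1.29 to 2.41). The adjusted p of Fyn was 0.176 with limma, 0.229 with edgeR's quasi-likelihood test and 0.0417 with DESeq2. HF lay above LF without overlap in 1 of the 17, against 3.47% of all genes tested. DESeq2 called 1 of the 17 higher in HF, against 1.45% of genes. The endocytic scaffolds Itsn1 and Itsn2 had folds of 0.782 (95% interval 0.603 to 1.01) and 1.25 (0.967 to 1.61). Mfsd2a, the lipid carrier that restrains caveolar transcytosis in mouse brain endothelium, averaged 0.591 in HF and 4.53 in LF and was too low to be tested.

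Of 15 receptors and enzymes described in caveolae, 11 had a fold above 1 (median log2 fold change 0.12). Trpv4, a mechanosensitive calcium channel, was at 622, 677, 722 and 740.5 in HF 1 to HF 4, against 359.9, 494, 445 and 526 in LF 1 to LF 4, without overlap. Its fold was 1.52 (95% interval 1.23 to 1.89). The adjusted p of Trpv4 was 0.163 with limma, 0.183 with edgeR's quasi-likelihood test and 0.0114 with DESeq2. HF lay above LF without overlap in 1 of the 15, against 3.47% of all genes tested. DESeq2 called 1 of the 15 higher in HF, against 1.45% of genes. The authors' deposited table, with DESeq2's column headings, lists Trpv4 and Fyn at adjusted p values of 0.0128 and 0.0234. It calls 1.58% of genes with an adjusted p higher in HF. Trpv4 and Fyn were named for the smallest limma p of their lists, so their low values are no further test of Plvap. Nos3, the endothelial nitric oxide synthase that caveolin 1 holds inactive, averaged 1259 ± 83.9 in HF, against 938 ± 268 in LF, for a fold of 1.38 (95% interval 1.06 to 1.79, limma adjusted p = 0.352), and its exons overlap Atg9b and Gm15587 on the other strand. S1pr1, the sphingosine 1-phosphate receptor of barrier function, had a fold of 1.34 (95% interval 0.939 to 1.92). Of 12 genes of the clathrin coat, the other main endocytic route, 11 had a fold above 1 and the median log2 fold change was 0.08. The clathrin genes with the smallest p were the adaptor subunits Ap2a2, Ap2a1 and Ap2b1, with folds of 1.11, 1.195 and 1.12.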

How the data were processed

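RNA had been isolated with TRIzol LS from sorted cells and made into SMART-Seq libraries, per the labels' protocols. The tools listed, per the submitters' processing notes, are DESeq2 1.24.0, featureCounts 2.0.0 and STAR 2.6.1b, without their settings. Not given in the sources used here: genome build, annotation and strand setting. Each library's deposited column is a normalised count, a signal without scaling to gene length. Beside these columns the authors deposited their own comparison, headed as log2 fold change, its SE, a Wald score, p-value and adjusted p-value.

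In each library all values (100%, tolerance 0.01 reads) came out as whole reads over a size factor of 0.820 to 1.27, so reads were recovered for edgeR 4.0.16 and DESeq2 1.42.0. All 34899 gene IDs matched GENCODE M21, which gave positions and exon lengths. The test was run on the 17067 genes that reached 10 normalised counts in 4 or more libraries. It was limma 3.58.1 (R 4.3.3) with the trend option, applied to log2(normalised count + 1) with no covariates, two-sided and adjusted by Benjamini-Hochberg over all genes tested at 0.05. Fold changes are on that scale, with 12.3 degrees of freedom for the 95% intervals, and understate the change of low genes. Ratios to Cav1 were compared by an exact permutation test, adjusted over all 17066 ratios in place of the planned adjustment over the 8, because the genes had been chosen with results known.

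The 9 genes, the other 13 gene lists and the tests were chosen with earlier results of these data known. From each list other than the markers, the 3 tested genes with the smallest p were named, and for Plvap and Cav1 the 5 genes of nearest profile. No 2 libraries agreed within sampling noise (chi-square per degree of freedom 9.98 to 50.7). Depth limits the precision of low genes most, and reads without molecular identifiers are not independent molecules. LF 1 had the fewest reads in genes, 10631506. Reads in genes divided by the size factor were lowest in LF 1 and LF 2. The part of this in the low caveolin values of LF 1 and LF 2 was not tested. Alternatives were edgeR and DESeq2, pseudocounts of 0.5 and 5, dropping the filter or asking for a mean of 50, other scalings, the replicate block, a threshold of 0.10, leaving out each library and, chosen after the data were seen, leaving out pairs of LF libraries.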

Additional observations from a re-analysis of the deposited data

Results flagged for a closer look

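In 1 of 64 groups of 4 values examined for a library far from the rest, the lowest value stood apart: Pacsin3, a muscle pacsin, was at 24.4 in HF 4 against 32.9 to 34.5 in the other HF libraries, a gap of 0.835 of the group's range (critical value 0.829). Chance flags about 1 in 20 such groups. None of the 9 caveola and diaphragm genes, and none of their ratios to Cav1, had such a library in either group.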

How the results depend on the processing

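The count of genes called was 0 with limma and moved to 309 with DESeq2, 1 with no filter, 0 to 1 when each library was left out, 641 with LF 1 and LF 2 left out and 3421 with LF 3 and LF 4 left out. The count among the 9 genes was 0 and moved to 1 with DESeq2, 1 with LF 1 and LF 2 left out and 6 with LF 3 and LF 4 left out, and stayed at 0 when each library was left out. Plvap and Cavin3 kept their direction under all alternatives run, with Plvap's log2 fold change at 0.58 to 0.81 and Cavin3's at 0.26 to 0.32 when each library was left out. Quantile normalisation lowered them to 0.55 for Plvap and 0.17 for Cavin3, and scaling to pan-endothelial markers to 0.56 and 0.13. Without LF 1 and LF 2 the log2 fold change turned to -0.16 for Cav1, -0.16 for Cav2, -0.059 for Cavin1, -0.067 for Cavin2, -0.016 for Ehd1, -0.039 for S1pr1 and -0.14 for Pecam1. Quantile normalisation turned Cavin1 to -0.096 and Cavin2 to -0.015, and scaling to pan-endothelial markers turned Cav1 to -0.0081, Cavin1 to -0.11 and Cavin2 to -0.036. Ehd4 ran from -0.060 to 0.0097 when each library was left out, turning to 0.0053 without HF 2 and to 0.0097 without LF 4, and to 0.018 without LF 3 and LF 4. Log2 ratios to Cav1 turned without LF 1 and LF 2 for Cavin1 (0.11), Cavin2 (0.098) and Ehd4 (0.080), and without LF 3 and LF 4 for Cavin3 (-0.19), Plvap (-0.0092) and Pacsin2 (-0.012). When each library was left out, the ratio ran from -0.084 to 0.029 for Cavin2, turning to 0.0041 without HF 4 and to 0.029 without LF 1, and from -0.0013 (without LF 3) to 0.18 for Pacsin2. The cause was not tested. Same-numbered libraries showed no clear shared deviation, with correlations of 0.11, -0.22, -0.14 and 0.18 for numbers 1 to 4. With so few libraries this check cannot exclude that the numbers pair the samples. With the replicate block limma called 0 genes and 0 of the 9, with Plvap's adjusted p at 0.351, and the ratio of Plvap to Cav1 had an exact sign-flip p of 0.5. With fits that leave LF with 2 libraries, the estimate of LF rests on those 2.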
